A study of Mus musculus with 8 samples.

Results

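The genes described here are those whose platform symbol starts with Nduf, the naming root of the nuclear-encoded subunits and assembly factors of respiratory complex I. The rule used the symbol only and no measured value. Of 18193 mouse genes with a probe set of their own on the array, 44 were Nduf genes, each read by the probe set with the highest mean signal across the 8 arrays. They fall into 6 core subunits of the matrix arm, 8 accessory subunits of the matrix arm, 20 accessory subunits of the membrane arm, 8 assembly factors, and Ndufa4 with its paralog Ndufa4l2. The last pair carries an Nduf symbol but is placed with complex IV in current descriptions of the respiratory chain, so the label of complex I holds for 42 of the 44 by name. A further 8 Nduf symbols, among them Ndufa11 and Ndufs6, occur only on probe sets shared by several genes and were not used.

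Complex I takes electrons from NADH, passes them along a chain of iron-sulfur clusters in its matrix arm to ubiquinone, and uses the energy to pump protons through its membrane arm. The matrix arm carries nuclear-encoded core subunits, the core of the membrane arm is encoded in mitochondrial DNA, and accessory subunits surround and stabilise both. Assembly factors help to build the complex and are not part of the finished enzyme. In hypoxia, cells are known to lower oxygen use by the respiratory chain, and Ndufa4l2 is known from other cells as a target of hypoxia-inducible factor (HIF) whose product lowers respiration.

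The cells were fibroblasts from C57BL/6J mouse embryos at E14.5, either wild type or homozygous for a knockout of Hif-p4h-1, and were kept in normoxia or in hypoxia. Hif-p4h-1 is encoded by Egln2 and is a prolyl hydroxylase that marks HIF alpha subunits for degradation when oxygen is present. The 4 groups were wild type in normoxia, wild type in hypoxia, knockout in normoxia and knockout in hypoxia, with 2 arrays each, and nothing else is listed that the groups shared or differed in. The labels place 1 array of each group in a second set, and the first value given below for a group is always that of the first set. The sources used here do not give the oxygen level, the time in hypoxia, how the allele was made or how many embryos stood behind each culture.

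Values are log2 signals from RMA, which forces arrays to a common distribution, so a change common to all transcripts cannot be seen in them. All arrays together had medians between 5.01 and 5.12. The 7 fibroblast markers read above the array median on all 8 arrays. The 2 first-set wild-type arrays stood apart by higher signal of the skeletal muscle markers Myog, Mylpf, Actc1 and Tnnt3. Acta1 and Ckm lay within the range of the other arrays there, and several macrophage markers were higher. Bnip3 and Pdk1, which respond to HIF, were higher in hypoxia over both genotypes by 3.50 and 3.35 on the log2 scale. Egln2 was lower in the knockout by -0.79 ± 0.089 in normoxia (SE, n = 2 per group, limma adjusted p = 0.0489), and the hypoxic arrays differed by -0.29 ± 0.089 (adjusted p = 0.725). The knockout arrays still gave signal, and where its probes lie relative to the deletion is not known here.

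The first question was how the Nduf genes responded to hypoxia. Ndufa4l2 rose, a few subunits moved by up to 0.5 on the log2 scale, and most of the others moved little. In wild type, Ndufa4l2 rose 3.99-fold and Ndufv3, an accessory subunit of the NADH-binding end, rose 1.39-fold. Ndufs1, the largest core subunit, fell to 0.745 times its normoxic signal, and Ndufb3, Ndufa8 and Ndufa9 fell by smaller amounts. In the knockout Ndufa4l2, Ndufv3 and Ndufa1 rose and Ndufs1 and Ndufb3 fell. These are bulk signals, in which fewer cells of a type and less RNA per cell cannot be told apart.

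Differences were tested with limma on all 13647 genes that passed a filter at the 25th percentile of the mean (4.17), and a gene is called changed at a Benjamini-Hochberg adjusted p under 0.05. Of the 44 Nduf genes 43 passed the filter, with means between 6.35 and 12.52, so none of them passed through a single group. Ndufb4 did not, with values between 3.37 and 3.88 on the 8 arrays. In wild type 2 Nduf genes rose, 4 fell and 37 did not pass, which is 14.0% of the 43 called against 16.4% of all genes (7.53% higher and 8.85% lower). In the knockout 3 rose, 2 fell and 38 did not pass, or 11.6% against 10.1% of all genes (4.98% higher and 5.13% lower). Over both genotypes 4 rose, 6 fell and 33 did not pass, or 23.3% against 28.7% of all genes (13.6% higher and 15.2% lower). The shares called were thus near those of all genes. No Nduf gene was called in any of these contrasts when the set was left out of the model. With the set as a random term, limma lost the calls of Ndufs1 in either genotype, Ndufa9 in wild type, Ndufa1 in knockout and Ndufaf3 over both genotypes. With only the groups compared, the wild-type calls of Ndufa4l2 and Ndufv3 were left and none in knockout. Without the 2 wild-type arrays that stood apart, which leaves 1 residual degree of freedom and 1 array in each wild-type group, 6 of the 10 Nduf calls over both genotypes were kept (Ndufa4l2, Ndufv3, Ndufa1, Ndufs1, Ndufb3 and Ndufa8) and none in either genotype alone. The rise of Ndufa4l2 over both genotypes was then 1.80 and the fall of Ndufs1 0.42.

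The sizes of change were small. Over both genotypes the median difference between hypoxia and normoxia was -0.005 for the 43 Nduf genes and 0.008 for all genes. The median size regardless of sign was 0.072 against 0.15 for all genes. The comparison was not matched for signal, as all genes tested reach down to a mean of 4.17 and the Nduf genes to 6.35. A difference under 0.25 in either direction was found for 35 of the 43, and for 70.2% of all genes. In wild type the median size was 0.08 against 0.175, and in knockout 0.065 against 0.155. A difference of 0.5 or more was found for 1 Nduf gene in wild type, Ndufa4l2, and for 2 in knockout, Ndufa4l2 and Ndufs1.

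**Figure D1:**
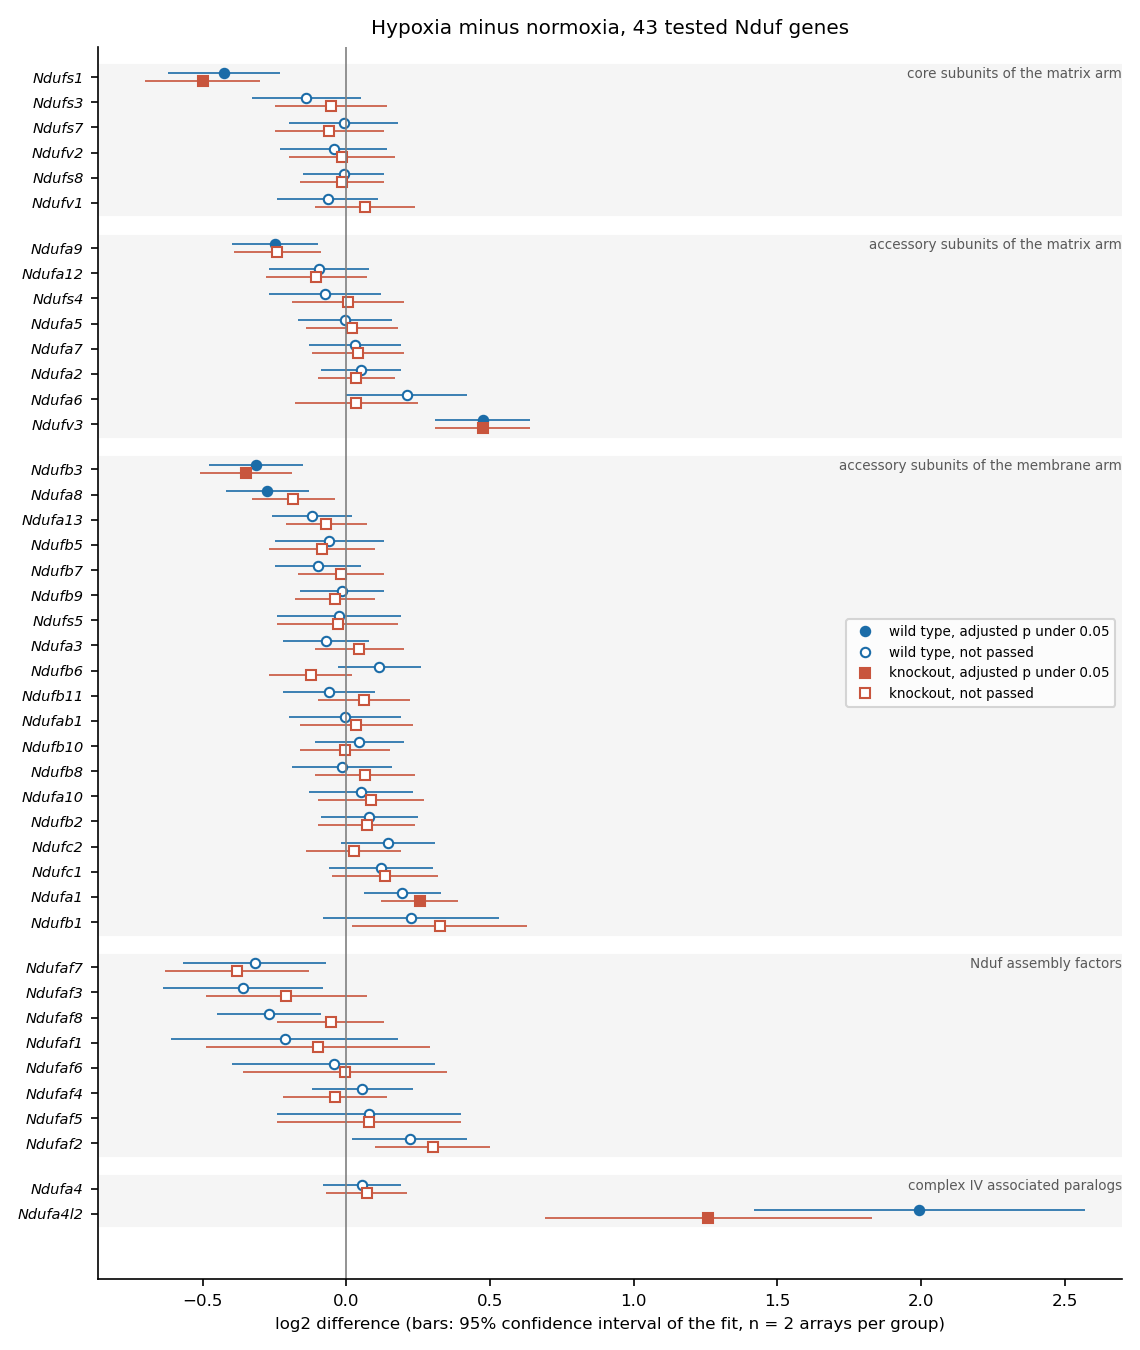
Hypoxia minus normoxia of the 43 tested Nduf genes (log2 difference with its 95% confidence interval), grouped by role, in wild type and in knockout. Most points sit within 0.25 of 0, Ndufa4l2 stands at 1.995 in wild type and 1.26 in knockout, and filled points mark genes with an adjusted p under 0.05.

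Among the core subunits of the matrix arm, 1 of 6 was called in each hypoxia contrast. Ndufs1 holds several of the iron-sulfur clusters that carry electrons away from the NADH site. Its wild-type arrays read 10.45 and 9.92 under normoxia against 9.94 and 9.58 under hypoxia. In the knockout it read 10.38 and 10.09 in normoxia and 9.87 and 9.60 in hypoxia. Each hypoxic array was below the normoxic array of its own set and genotype, while the ranges of all normoxic and all hypoxic arrays overlapped because the second set read lower throughout. Ndufs1 fell by 0.43 ± 0.086 in wild type (SE, n = 2 per group, limma adjusted p = 0.0155), while the knockout fell by 0.50 ± 0.086 (adjusted p = 0.014). Over both genotypes it fell by 0.46 ± 0.061 (adjusted p = 0.00136), a call kept in all 8 fits that left out 1 array. The wild-type call was lost without wild type normoxia replicate 1 and without either hypoxic wild-type array, and the knockout call without any of the 4 knockout arrays. Both were also lost with the set as a random term and with only the groups compared.

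The other 5 core subunits did not pass in any contrast. Ndufv1 binds NADH and its flavin, and differed between hypoxia and normoxia over both genotypes by 0.00, with a 95% confidence interval from -0.13 to 0.13. Ndufv2, its iron-sulfur partner, differed by -0.03, with an interval from -0.16 to 0.10. Ndufs7 and Ndufs8, which hold the clusters next to the ubiquinone site, differed by -0.04 and -0.01. Ndufs3, another core subunit near that site, differed by -0.10 with an interval from -0.23 to 0.04. By their brightest probe sets the core subunits tested here therefore differed by less than 0.25 over both genotypes, apart from Ndufs1. A second probe set of Ndufs7, with a mean of 9.78, disagreed with the first. It fell by 0.36 ± 0.086 in wild type (adjusted p = 0.0291 with every probe set tested) and by 0.25 ± 0.061 over both genotypes (adjusted p = 0.0183), and its knockout value was -0.14 (adjusted p = 0.356). For Ndufs8 a further probe set of nearly equal mean (11.37 beside 11.41) gave -0.27 in wild type and -0.165 over both genotypes. Neither was called (limma adjusted p = 0.0525 and 0.0578). The remaining Ndufs8 probe sets lay between -0.108 and 0.028 over both genotypes.

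In the accessory matrix arm, Ndufv3 and Ndufa9 were called and the other 6 of 8 were not. Ndufv3 sits beside the NADH-binding subunits and is made in a short and a long isoform. The sources used here do not tell which isoform its probe set reads. On its wild-type arrays it read 10.76 and 10.77 under normoxia against 11.25 and 11.23 under hypoxia, and on the knockout arrays 10.83 and 10.87 against 11.41 and 11.24. All 4 hypoxic arrays were above all 4 normoxic ones. Its rise was 1.39-fold in each genotype, or 0.48 ± 0.074, with adjusted p = 0.00606 for wild type and adjusted p = 0.00966 for knockout. The rise over both genotypes was kept in all 8 fits without 1 array (adjusted p up to 0.00567). The wild-type call was lost without wild type normoxia replicate 1 (adjusted p = 0.0566), and the knockout call in 3 fits, without either normoxic knockout array and without knockout hypoxia replicate 1.

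Ndufa9 lies where the matrix arm meets the membrane arm. Wild-type arrays read 11.17 and 11.09 under normoxia against 10.92 and 10.84 under hypoxia. The knockout arrays read 11.23 and 11.12 in normoxia and 10.95 and 10.92 in hypoxia. Hypoxic and normoxic arrays did not overlap. Ndufa9 fell by 0.25 ± 0.064 in wild type (adjusted p = 0.0328), and the knockout difference of -0.24 ± 0.064 did not pass (adjusted p = 0.0507). The values are nearly equal, and their difference, the interaction of 0.01, had an interval from -0.20 to 0.22. The wild-type call survived in 2 of the 8 fits that left out 1 array, those without a hypoxic knockout array, and was lost without any wild-type or normoxic knockout array. Over both genotypes the fall of 0.25 ± 0.045 passed (adjusted p = 0.00529) and was kept in all 8 of them.

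In the accessory membrane arm, 19 of 20 genes were tested. In wild type none rose and 2 fell, in knockout 1 rose and 1 fell, and over both genotypes 1 rose and 2 fell. The shares called were 10.5%, 10.5% and 15.8%, beside 16.4%, 10.1% and 28.7% of all genes. Ndufb3 is a small subunit that spans the inner membrane. Its wild-type arrays read 10.59 and 10.52 under normoxia against 10.28 and 10.20 under hypoxia, and the knockout arrays 10.56 and 10.59 against 10.24 and 10.21. The 4 normoxic arrays lay between 10.52 and 10.59 and the 4 hypoxic arrays between 10.20 and 10.28. Ndufb3 fell by 0.32 ± 0.07 in wild type (adjusted p = 0.0205). Its fall in knockout was 0.35 ± 0.07 (adjusted p = 0.0212). Each of these calls was lost in the 4 fits without an array of its own genotype, and the call over both genotypes (-0.33 ± 0.05, adjusted p = 0.00214) was kept in all 8 fits.

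Ndufa8 faces the intermembrane space and is folded by the disulfide relay there. On its wild-type arrays it read 11.45 and 11.46 under normoxia against 11.17 and 11.19 under hypoxia, and on the knockout arrays 11.48 and 11.44 against 11.29 and 11.26. Again no hypoxic array reached a normoxic one. Ndufa8 fell by 0.28 ± 0.061 in wild type (adjusted p = 0.0208), while the knockout difference was -0.19 ± 0.061 (adjusted p = 0.0954) and the interaction 0.09 with an interval from -0.11 to 0.29. None of the 4 fits without a wild-type array kept the wild-type call. Over both genotypes the fall was 0.23 ± 0.043 (adjusted p = 0.00584).

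Ndufa1, an X-linked subunit that crosses the membrane, moved the other way. Its wild-type arrays read 11.93 and 12.29 under normoxia against 12.15 and 12.46 under hypoxia, and the knockout arrays 11.85 and 12.22 against 12.14 and 12.44. Each hypoxic array was above its normoxic partner of the same set, and the ranges overlapped because the second set read higher by 0.34 on average. Ndufa1 rose by 0.26 ± 0.057 in knockout (adjusted p = 0.0297), a call that none of the 4 fits without a knockout array kept, and the wild-type value was 0.20 ± 0.057 (adjusted p = 0.0526). Over both genotypes its rise was 0.23 ± 0.04 (adjusted p = 0.00479).

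Of the 16 membrane-arm genes not called over both genotypes, Ndufb1 had the largest difference. On its wild-type arrays it read 7.79 and 7.66 under normoxia against 8.05 and 7.85 under hypoxia, and on the knockout arrays 7.53 and 7.81 against 8.03 and 7.96. Its hypoxic arrays were all above its normoxic ones, yet its 0.28 ± 0.093 was not called (adjusted p = 0.0591). Counted in this way, 3 of the 43 Nduf genes had all hypoxic arrays above all normoxic ones (Ndufa4l2, Ndufv3 and Ndufb1), against 7.09% of all genes. Another 4 had all of them below (Ndufa8, Ndufa9, Ndufb3 and Ndufaf7), against 8.20% of all genes.

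The promoters of 4 of these called subunits are shown because the genes moved in opposite directions and their upstream letters can be set side by side. Sequences were taken from RefSeq on GRCm38.p6 and give the 250 bases before the annotated start, 5′ to 3′ on the strand of the gene. Capitals mark ACGTG or GCGTG, the core forms of the HIF response element, and a form of the site of nuclear respiratory factor 1 (NRF1) made of GCGCA, any base and GCGC, on either strand.
Ndufv3, chr17:31519865-31520114, plus strand: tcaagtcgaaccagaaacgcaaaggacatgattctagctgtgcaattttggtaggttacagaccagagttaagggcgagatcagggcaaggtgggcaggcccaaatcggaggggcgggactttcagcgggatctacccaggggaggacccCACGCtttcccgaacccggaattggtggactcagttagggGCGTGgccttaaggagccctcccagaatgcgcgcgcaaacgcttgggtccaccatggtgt
Ndufa1, chrX:37191239-37191488, minus strand: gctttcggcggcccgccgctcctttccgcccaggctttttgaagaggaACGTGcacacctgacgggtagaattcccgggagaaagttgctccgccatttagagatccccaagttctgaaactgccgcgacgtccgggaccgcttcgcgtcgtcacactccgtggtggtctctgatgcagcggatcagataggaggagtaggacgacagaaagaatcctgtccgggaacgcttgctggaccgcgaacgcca
Ndufb3, chr1:58586147-58586396, plus strand: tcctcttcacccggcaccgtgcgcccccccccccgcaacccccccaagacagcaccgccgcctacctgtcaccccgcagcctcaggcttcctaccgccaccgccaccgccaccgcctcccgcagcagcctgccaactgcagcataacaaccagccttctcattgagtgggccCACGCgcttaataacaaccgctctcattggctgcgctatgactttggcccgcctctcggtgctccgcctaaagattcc
Ndufa8, chr2:36049339-36049588, minus strand: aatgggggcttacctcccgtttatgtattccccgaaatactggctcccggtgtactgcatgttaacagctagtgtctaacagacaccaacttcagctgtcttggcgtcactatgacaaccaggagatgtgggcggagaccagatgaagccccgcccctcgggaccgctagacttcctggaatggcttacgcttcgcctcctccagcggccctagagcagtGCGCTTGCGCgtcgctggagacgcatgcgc

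Ndufv3 and Ndufa1, which rose, and Ndufb3, which fell, each held at least 1 HIF core in these bases, and Ndufa8 held an NRF1 form and no HIF core. The HIF core of Ndufv3 stood 100 and 60 bases before the start in its GCGTG form, that of Ndufa1 202 bases before in its ACGTG form, and that of Ndufb3 78 bases before. The NRF1 form of Ndufa8 began 30 bases before the start. The table of promoters, 300 bases each with 50 bases after the start, held 41 promoters of 39 Nduf genes. Ndufa4l2 and Ndufs1 had no entry. Across those 41 promoters, ACGTG on either strand was found in 22.0% against 19.6% of all 32851 promoters, and GCGTG in 53.7% against 32.4%. The NRF1 form was found in 19.5% against 4.6%, and AAGATGGC, a form of the YY1 site, in 17.1% against 2.75%. CCGGAAG, an ETS form, was found in 14.6% against 8.86% and CCAAT in 31.7% against 37.4%. The median GC content was 59.7% in the Nduf promoters and 52.7% in all promoters. ACGTG can overlap its own complement in CACGTG, and GCGTG can overlap the end of an NRF1 form. A match describes the letters only.

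**Figure D2:**
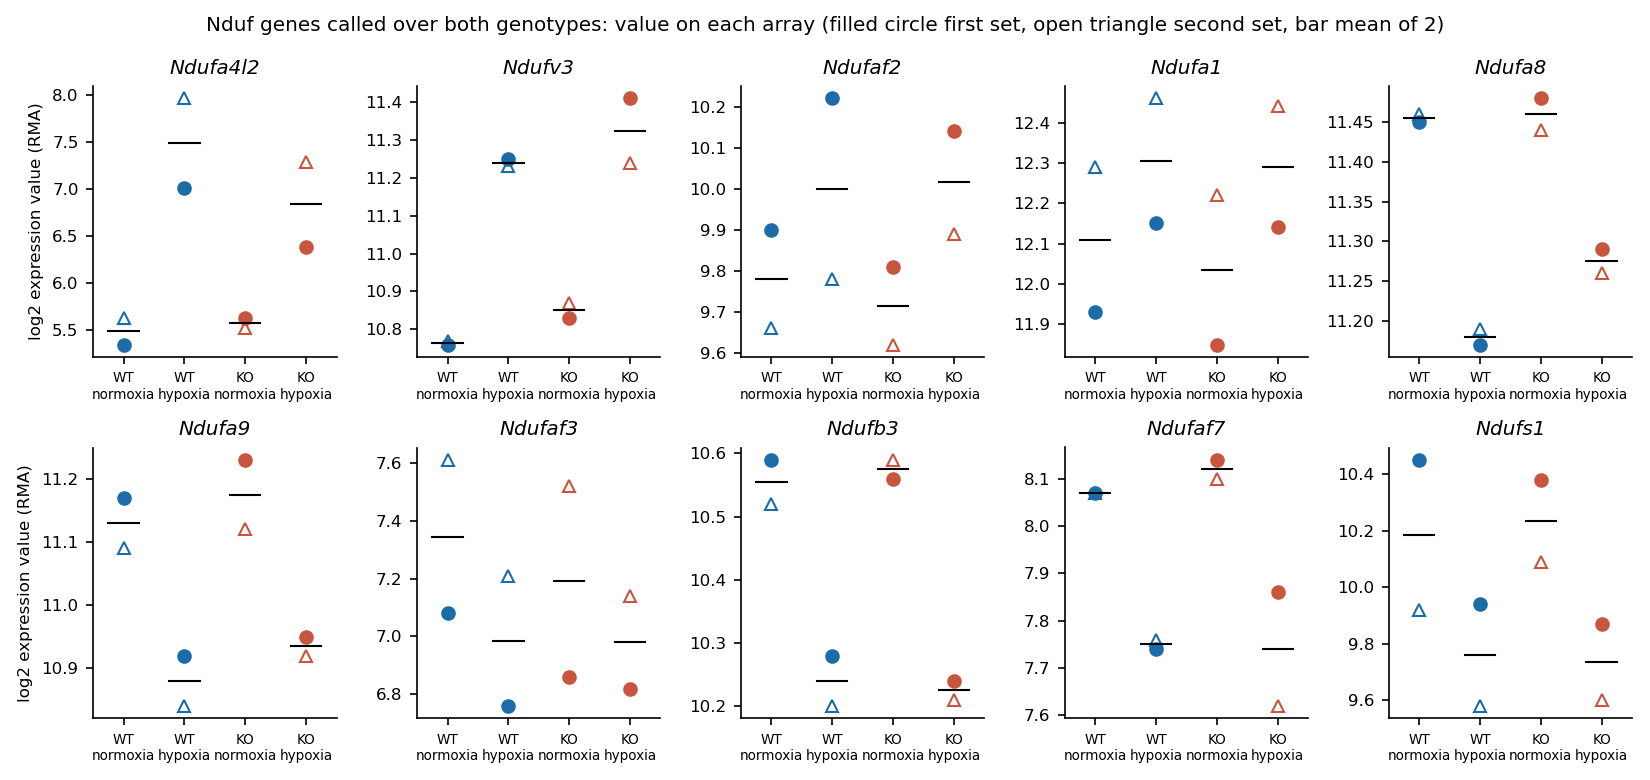
Log2 signal on each array of the 10 Nduf genes called between hypoxia and normoxia over both genotypes, by group (filled circles first set, open triangles second set, bars the mean of 2 arrays); each panel has its own axis. In Ndufv3 and Ndufb3 the hypoxic and normoxic arrays do not overlap, while in Ndufs1 and Ndufa1 the sets are offset and each hypoxic array differs from its partner in the same direction.

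The 8 Nduf assembly factors gave no call in either genotype alone, and over both genotypes 1 rose and 2 fell. The share called over both was 37.5%, beside 28.7% of all genes. In wild type 16.4% of all genes were called, and in knockout 10.1%. Ndufaf2 acts late in assembly and is related to the subunit Ndufa12. Its wild-type arrays read 9.90 and 9.66 under normoxia against 10.22 and 9.78 under hypoxia, and the knockout arrays 9.81 and 9.62 against 10.14 and 9.89. Its rise was 0.26 ± 0.06 (adjusted p = 0.0137), and 4 of the 8 fits without 1 array kept the call. It was lost without either first-set normoxic array, without wild type hypoxia replicate 1 and without knockout hypoxia replicate 2, with adjusted p up to 0.0699.

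Ndufaf7, a methyltransferase that modifies a core subunit during assembly, read 8.07 on both normoxic wild-type arrays and 7.74 and 7.76 in hypoxia. In the knockout it read 8.14 and 8.10 in normoxia and 7.86 and 7.62 in hypoxia. Hypoxic and normoxic arrays did not overlap, and the fall was 0.35 ± 0.076 (adjusted p = 0.0105), kept in all 8 fits without 1 array. For Ndufaf3, an early assembly factor, the wild-type arrays read 7.08 and 7.61 under normoxia against 6.76 and 7.21 under hypoxia, and the knockout arrays 6.86 and 7.52 against 6.82 and 7.14. It fell by 0.29 ± 0.087 (adjusted p = 0.0398). Of the 8 fits, 1 kept that call, without knockout hypoxia replicate 1, and 7 lost it, with adjusted p up to 0.168. Ndufaf1 had opposite signs in the sets, with 0.14 and -0.45, and its difference over both was -0.16 ± 0.12.

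Ndufa4 and Ndufa4l2 are similar in sequence and differed in response. For Ndufa4 the wild-type arrays read 12.04 and 12.33 under normoxia against 12.15 and 12.33 under hypoxia, and the knockout arrays 12.00 and 12.29 against 12.10 and 12.33. Its difference over both genotypes was 0.06 ± 0.042, with an interval from -0.03 to 0.16 (adjusted p = 0.319). The wild-type signal of Ndufa4l2 was 5.35 and 5.63 in normoxia against 7.01 and 7.96 in hypoxia. In the knockout it was 5.63 and 5.52 in normoxia and 6.38 and 7.29 in hypoxia. All hypoxic arrays were above all normoxic ones, and the hypoxic arrays of the second set were above those of the first.

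Ndufa4l2 rose by 2.00 ± 0.25 in wild type (SE, n = 2 per group, adjusted p = 0.00287), made up of 1.66 in set 1 and 2.33 in set 2. In knockout it rose by 1.26 ± 0.25, or 2.39-fold (adjusted p = 0.0204), made up of 0.75 and 1.77. Over both genotypes it rose by 1.63 ± 0.18, or 3.09-fold (adjusted p = 6.3e-04). The wild-type call was kept in all 8 fits without 1 array. The knockout call was lost without knockout normoxia replicate 2 and without knockout hypoxia replicate 2, where the rise was as low as 0.85 and the adjusted p as high as 0.179.

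The second question was whether the knockout altered the Nduf genes. No Nduf gene was called between genotypes in normoxia, in hypoxia or over both, by limma at an adjusted p under 0.05. Of all genes 0.0366% were called in normoxia, 0.0293% in hypoxia and 0.256% over both, so few genes of any kind passed. At an unadjusted p under 0.05 there was 1 Nduf gene in normoxia, 1 in hypoxia and none over both, against 6.70%, 5.52% and 10.2% of all genes. The 95% confidence intervals of the 43 differences over both oxygen conditions lay between -0.69 and 0.37, and the lower bound is that of Ndufa4l2. A difference under 0.25 in either direction was measured for 42 of the 43 over both conditions.

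**Figure D3:**
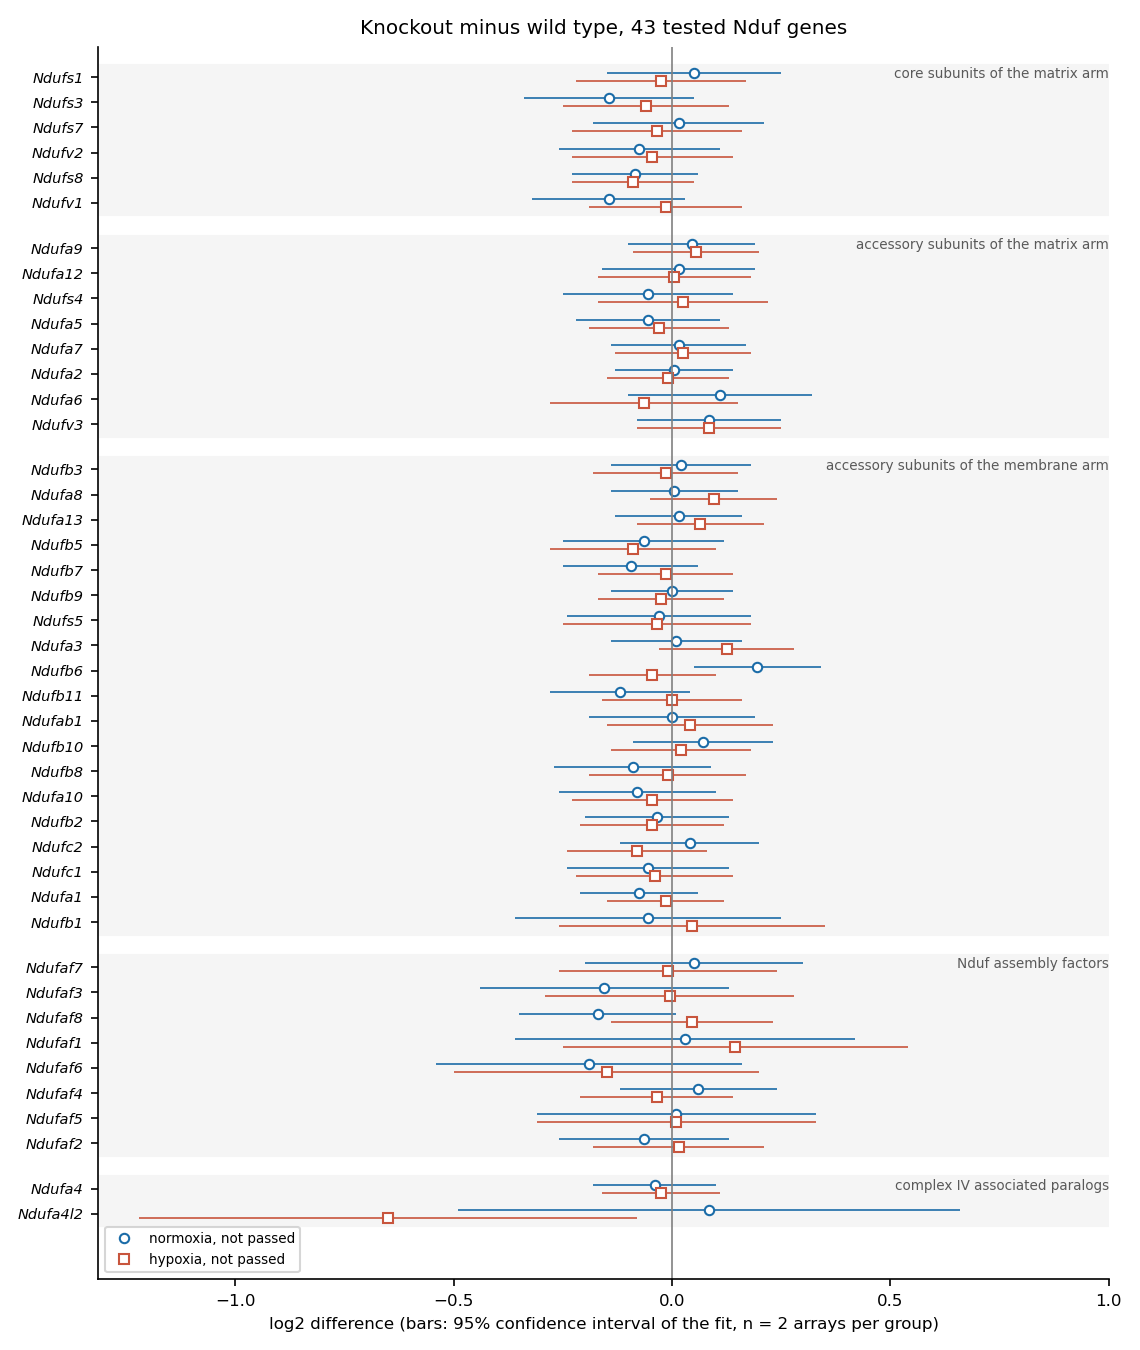
Knockout minus wild type of the 43 tested Nduf genes (log2 difference with its 95% confidence interval), in normoxia and in hypoxia, grouped by role. All intervals but 1 in each oxygen condition cross 0 (Ndufb6 in normoxia, Ndufa4l2 in hypoxia), no gene passed at an adjusted p under 0.05, and Ndufa4l2 in hypoxia is the farthest from 0 at -0.65.

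Ndufb6, a membrane-arm subunit, had the smallest unadjusted p in normoxia. Its normoxic wild-type arrays read 11.62 and 11.81 and the knockout arrays 11.84 and 11.98, a difference of 0.20 ± 0.065 (adjusted p = 0.602). With the mean over its probe sets this difference was 0.082. In hypoxia the knockout differed by -0.05, and its interaction, -0.24 ± 0.091, was not called (adjusted p = 1) and was -0.068 with the mean over probe sets. In hypoxia the smallest unadjusted p, 0.0301 by the limma fit across all genes, was that of Ndufa4l2. Its signal was lower in the knockout in both sets, by -0.63 and -0.67, and the 2 sets together gave -0.65 ± 0.25 (adjusted p = 0.861). The genotype by oxygen interaction of Ndufa4l2 was -0.74 ± 0.35, with an interval from -1.54 to 0.07 (adjusted p = 1), so a smaller response in the knockout was neither shown nor bounded near 0. Of all genes 0.0% were called for the interaction, with 2.42% at an unadjusted p under 0.05, and Ndufb6 was the 1 Nduf gene at that level.

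Markers of other cells also differed between arrays. The summed signal of the 7 macrophage and leukocyte markers was between 9.39 and 11.03 (log2) in normoxic wild type, 9.10 and 10.50 in hypoxic wild type, 8.48 and 8.99 in normoxic knockout and 8.27 and 8.90 in hypoxic knockout. Over both oxygen conditions 3 of them, Csf1r, Ptprc and Tyrobp, were called lower in the knockout. These 3, Fcer1g and Adgre1 read highest on the 2 first-set wild-type arrays, and Cd68 and Msr1 did not on both. Csf1r was 9.84 and 9.54 on those arrays and between 6.78 and 8.16 on the others. The 7 muscle markers summed to between 11.57 and 11.85 in normoxic wild type, 11.09 and 11.59 in hypoxic wild type, 9.72 and 11.70 in normoxic knockout and 9.67 and 11.28 in hypoxic knockout. Over the 6 tested muscle markers the median of knockout minus wild type was below 0 in the first set only, at -3.03 in normoxia and -2.56 in hypoxia, against 0.20 and 0.29 in the second. The 2 first-set wild-type arrays stood apart, with Myog at 8.04 and 7.96 and between 3.48 and 4.33 on the other 6 arrays. Mylpf, Actc1 and Tnnt3 were also highest on these 2 arrays. Acta1 (9.65 and 9.21) and Ckm (5.09 and 5.33) lay within the range of the other 6. No muscle marker was called between genotypes. The defining factor Myod1 was below the filter, at 4.98 and 4.57 on these 2 arrays and between 3.33 and 4.07 on the other 6. The 5 endothelial markers had Pecam1, Cdh5 and Emcn below the filter, the 3 erythroid markers on the array were all below it, and of the 5 epithelial markers Cdh1 was. With hypoxia over both genotypes, 1 marker each of macrophages (Msr1), muscle (Acta1) and epithelium (Epcam) fell. Fibroblast markers summed to between 15.93 and 16.13 in all groups, and 1 of the 7, Pdgfra, was called lower in the knockout over both oxygen conditions, by -0.72. With hypoxia, the signal of the 3′ over the 5′ control probe sets was higher in 4 of 4 pairs of arrays, by 0.10 to 0.17 for Actb and 0.04 to 0.33 for Gapdh. The part of the RNA ends and of these cell markers in the Nduf values was not tested. The 2 arrays left out above carried both the higher muscle and the higher macrophage markers, so leaving them out does not separate the 2.

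The set was a larger source of variation than oxygen for most Nduf genes. The second set differed from the first by more than hypoxia differed from normoxia in 27 of the 43, or 62.8%, against 60.1% of all genes. The median size of the set difference was 0.12, beside 0.072 for hypoxia. In all 4 groups the second set was higher for 11 Nduf genes, such as Ndufa7 (by 0.42) and Ndufa3 (by 0.41), and lower for 12, such as Ndufv1 (-0.37) and Ndufa5 (-0.34). The response to hypoxia also had a different balance in the sets. In wild type hypoxia was higher for 24 Nduf genes and lower for 17 in the first set, against 12 higher and 29 lower in the other. As a share this is 55.8% and then 27.9% higher, beside 48.2% and 45.9% of all genes. In knockout 29 were higher and 12 lower in the first set, against 14 and 28, or 67.4% and then 32.6% higher, beside 54.8% and 48.8% of all genes. The direction was the same in both sets for 53.5% of the Nduf genes in wild type and 55.8% in knockout, against 70.4% and 70.3% of all genes.

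**Figure D4:**
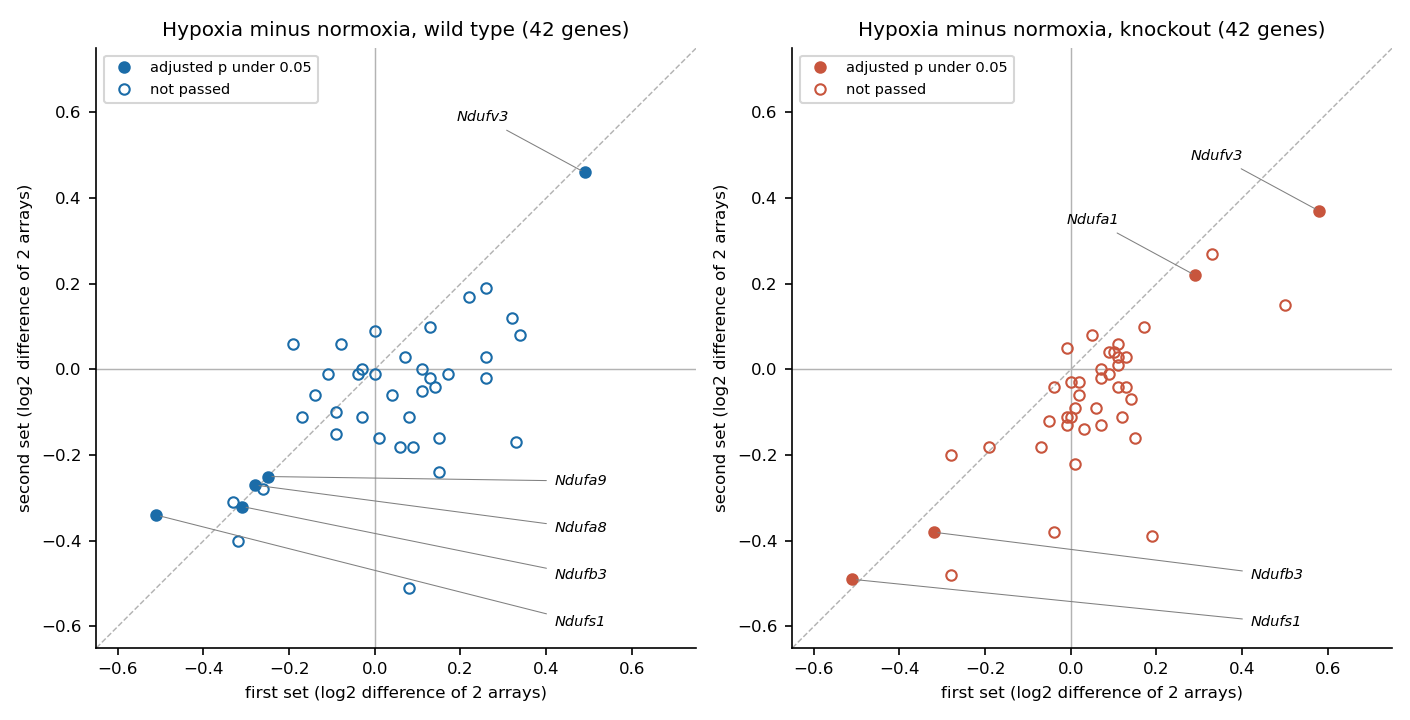
Hypoxia minus normoxia in the first set (horizontal) and second set (vertical), as log2 differences of 2 arrays, for 42 tested Nduf genes in wild type and in knockout; Ndufa4l2 (wild type 1.66 and 2.33, knockout 0.75 and 1.77) lies beyond the axes and is not drawn. The called genes lie near the dashed line of equal change, and many of the others fall below it, with a higher value in the first set. The fit counts disagreement of the sets as spread, so the place of the called genes follows in part from the calling.

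Assembly factors without an Nduf symbol were followed as a list of 15, of which 14 were on the array. In each genotype 1 fell and none rose, or 7.14% called, beside 16.4% of all genes in wild type and 10.1% in knockout. Over both genotypes 3 fell and 11 did not pass, or 21.4% called beside 28.7% of all genes. For Foxred1, a flavoprotein needed for complex I assembly, the wild-type arrays read 7.75 and 7.21 under normoxia against 6.66 and 6.01 under hypoxia, and the knockout arrays 7.61 and 7.17 against 6.71 and 6.15. Every hypoxic array was below every normoxic one. Foxred1 fell by 1.15 ± 0.12 in wild type (adjusted p = 0.0013). Its fall in knockout was 0.96 ± 0.12 (adjusted p = 0.00403). Read by the brightest probe set of each gene, Foxred1 had the largest fall among the Nduf genes and these assembly factors. A weak probe set of Ndufab1, described under the other observations, fell further, by 1.37 over both genotypes. Tmem186, an assembly factor of the inner membrane, fell by 0.36 ± 0.09 over both genotypes (adjusted p = 0.0191), and Tmem70, which also serves assembly of ATP synthase, by 0.29 ± 0.074 (adjusted p = 0.02). Of 3 weaker probe sets of Tmem186, 1 fell by 0.53 (adjusted p = 0.0279) and the others gave -0.32 and 0.02 without a call.

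Subunits of complexes II to V gave the context of the rest of the chain. Of 37 tested, 2 rose and 8 fell in wild type, 1 rose and 4 fell in knockout, and over both genotypes 7 rose and 9 fell with a median of 0.00. The share called over both genotypes was 43.2%, beside 28.7% of all genes. In wild type it was 27.0% beside 16.4%, and in knockout 13.5% beside 10.1%. Cox7c of complex IV fell by 0.99 ± 0.095 over both genotypes, Atp5a1 of ATP synthase by 0.67 ± 0.042, Sdha of complex II by 0.56 ± 0.059 and Cyc1 of complex III by 0.42 ± 0.055. Further probe sets gave 0.06 for Sdha (adjusted p = 0.4) and -0.43 and 0.05 for Atp5a1. The Cox7c probe set was weak, with a mean of 6.19, and a weaker one with a mean of 4.43 fell by 0.92. Other complex IV subunits of this list read between 11.39 and 14.12 on the arrays. Mitochondrial ribosomal proteins (Mrpl and Mrps) had 8 higher and 10 lower of 76 over both genotypes, or 23.7%. Among 11 regulators of mitochondrial biogenesis, over both genotypes Yy1 rose, Nrf1 and Tfb1m fell and 8 did not pass, so 27.3% were called. In wild type alone none of the 11 was called, and in knockout alone 1 fell. Of 12 abundant mitochondrial proteins, 1 rose over both genotypes, Tomm40, and 6 fell, or 58.3% in all. Among those that fell were the matrix chaperones Hspd1 (-0.26) and Hspa9 (-0.26) and citrate synthase, Cs (-0.19). In wild type alone 1 of the 12 rose and 5 fell, while in knockout alone none was called. Of 7 genes that link HIF to mitochondria, 5 rose in each genotype and over both (71.4%). Among them were Higd1a, a small inner-membrane protein, by 1.57 and the protease Lonp1 by 0.65 over both genotypes. The 5 include Bnip3 and Pdk1, already used above to check the hypoxia labels, and the list was made of genes linked to HIF. Cox4i2, which read between 5.25 and 5.42 on all arrays, and Iscu were not called.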

How the data were processed

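Gene expression was measured on 8 one-colour Affymetrix arrays. The deposited table holds log2 values per probe set, made by RMA per the submitters' processing notes. The sources used here give no version and do not tell whether all arrays were normalized together. Genes were assigned through the platform annotation, and probe sets with several symbols were not used. With R 4.3.3 and limma 3.58.1, a mean per group and the set were fitted to all 8 arrays and variances moderated by eBayes along a mean-variance trend (3 residual and 5.22 prior degrees of freedom). P-values are two-sided and adjusted over 13647 genes. The script was checked on simulated data with independent noise and planted changes, in the wild-type hypoxia contrast only. That checks the code and not the p-values of these arrays.

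The set was used as a replicate block because the labels mark a second array in each group as such. Set differences correlated across genes at 0.851 between the wild-type groups and 0.83 between the knockout groups. Between groups of different genotype the correlation was 0.71 to 0.768. Arrays of the same genotype and set thus shared variation that a set term common to all groups does not take up. The p-values between genotypes treat these arrays as independent. Nothing says that arrays came from separate cultures, so the p-values reflect the spread among the 8 arrays only, and that spread may be technical.

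The members and lists were chosen with earlier results of these data known. Named were Ndufa4, Ndufa4l2, up to 8 called Nduf genes per direction in each hypoxia contrast, the Nduf genes of smallest p between genotypes, up to 4 called genes per other list, Egln2, Pdk1 and Bnip3. The remaining Nduf genes named, and the promoters shown, were picked after their values were seen. Alternatives were the set as a random term or left out, the groups compared only, other filters, centring or quantile normalization, the mean over probe sets, no trend, and leaving out each array or, chosen after seeing the data, both first-set wild-type arrays.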

Additional observations from a re-analysis of the deposited data

How the results depend on the processing

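Every named Nduf call kept its direction under each alternative run. Without the replicate block, limma called 0 Nduf genes in wild type, knockout and over both genotypes (all genes: 20, 12 and 99), and 0 genes between genotypes in normoxia, hypoxia or over both. Ndufa4l2 in wild type then had an adjusted p of 0.226. With the set as a random replicate block, Nduf genes lower were 2 in wild type and 1 in knockout (all genes: 1136 and 517), and 0 genes were called between genotypes. With only the groups compared, Nduf genes lower were 0 in wild type, and none was called in knockout (all genes: 499 and 53), and 0 genes in either genotype contrast. Without a trend, Nduf genes lower were 1 in wild type, and 1 higher and 1 lower in knockout (all genes: 1341 and 603; between genotypes 2 in normoxia, 0 in hypoxia and 3 over both). The mean over probe sets gave 1473 genes in wild type and 8 between genotypes over both. Nduf genes lower in knockout were 4 with the filter at the 50th percentile, which leaves out Ndufa4l2, and 4 with arrays centred on the median. These 2 settings gave 11 genes each between genotypes in normoxia. Centring also gave 3 Nduf genes higher and 3 lower in wild type, against 2 and 4. Leaving out each array gave 1 to 2 Nduf genes higher and 0 to 4 lower in wild type, and 0 to 4 higher and 0 to 2 lower in knockout. For all genes it gave 490 to 1974 in wild type, 121 to 1334 in knockout, 2554 to 3310 over both genotypes, and between genotypes 0 to 3 in normoxia, 0 to 5 in hypoxia and 3 to 58 over both. Leaving out both first-set wild-type arrays, an alternative chosen after seeing the data, gave 0 Nduf genes in wild type and in knockout, 3 higher and 3 lower over both genotypes (all genes: 6, 50 and 1602), and 0 genes between genotypes in normoxia, hypoxia or over both. The cause was not tested. With 2 arrays per group, the number of arrays limits the precision.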

Other observations

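Of the 44 Nduf genes 22 had more than 1 probe set, and the 10 genes called over both genotypes had 1 each. Testing every probe set was an alternative chosen after seeing the data. Of the 44 further Nduf probe sets 43 were tested, and over both genotypes 2 rose and 4 fell. By their brightest probe sets 28.7% of all genes were called in that contrast. The share over all probe sets tested is not given here. Ndufab1, the mitochondrial acyl carrier protein, which also serves fatty acid and iron-sulfur cluster synthesis, had probe sets that disagreed. By its brightest probe set it differed by 0.02 with hypoxia, on arrays that read between 11.66 and 11.94. A weak one read 4.85, 4.88, 5.12 and 4.82 on the normoxic arrays and 5.37, 5.30, 5.58 and 5.48 on the hypoxic ones. Another read 5.90, 4.73, 6.38 and 5.14 in normoxia and 4.04, 4.11, 5.06 and 3.48 in hypoxia. The first of these weak sets rose by 0.52 and the other fell by 1.37. A further probe set of Ndufb8 rose by 0.39, while further ones of Ndufs7 and Ndufb7 fell by 0.25 and 0.20. For these genes the brightest probe sets differed by 0.03, -0.04 and -0.06. For Ndufb6 a further probe set of nearly equal mean (11.8 beside 11.81) fell by 0.14 over both genotypes (limma adjusted p = 0.045). The brightest differed by -0.005. In wild type the 2 had opposite signs, -0.195 and 0.115, and neither was called.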
